A study of Mus musculus with 80 samples.

Results

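The cell cycle and proliferation genes described here were 38 genes chosen by name, of 16593 gene symbols with a probe on the Illumina MouseRef-8 array. Of these, 35 had at least 1 probe, 61 probes in all, and Mki67, Ccnb1 and Aurkb had none. Where a gene had several probes, the probe with the highest mean signal stood for it. Total RNA came from spleen, liver, lungs, kidney cortex and kidney medulla of adult nude mice of the Balb/c strain, all female and of the line CAnN.Cg-Foxn1nu/Crl, which lack a thymus and most T cells. The mice received the alpha emitter 211At intravenously. Exposed groups were 1.7 kBq 211At with killing at 1 h, 6 h or 7 d (n = 3 each), 105 kBq at 1 h (n = 2) and 7.5 kBq at 6 h (n = 2). The mock-treated controls (n = 3) were killed at 24 h, so that the time of killing differed from control in every exposed group. One array was deposited for each mouse and tissue, 80 in all and 16 per tissue. Labels do not state which tissues came from the same mouse. All values are log2 of the deposited quantile-normalized signals, and a difference of 1 on this scale is 2-fold in signal. Because every array had been given the same distribution, a level is relative to the other transcripts on that array. In bulk tissue, fewer dividing cells and less RNA per dividing cell cannot be told apart.

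Most of these genes are transcribed in waves as a cell passes through the cycle. In quiescent cells, E2F family repressors and the DREAM complex hold them off. E2F activators then open the genes for DNA replication as cells enter S phase, and B-Myb with Foxm1 opens the mitotic genes in G2. The MCM helicase, its loaders Cdc6 and Cdt1, the loading inhibitor geminin (Gmnn), the sliding clamp Pcna and the enzymes of nucleotide supply belong to the first wave. The cyclins and kinases of mitosis, the spindle checkpoint, the kinesins and the centromere proteins belong to the second. The mouse spleen holds many cycling cells, since it makes erythroid and myeloid cells throughout adult life as well as expanding lymphocytes.

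Promoters of 5 members are shown because they carry the sequence elements through which the waves are classically read, and because their genes include Cenpa, the brightest member, and Pcna, which with Ccna2 least often followed the other members. Each window has 280 bases, 250 before and 30 from the annotated start, from RefSeq on GRCm38.p6, printed 5′ to 3′ on the strand of the gene. Capitals mark the CHR element, with the letters TTTGAA, the CCAAT box, which reads ATTGG where it lies on the opposite strand, and 3 E2F words, TTTGGCGC, TTTCGCGC and TTTCCCGC, all searched on both strands.
Cenpa (chr5:30666636-30666915, + strand): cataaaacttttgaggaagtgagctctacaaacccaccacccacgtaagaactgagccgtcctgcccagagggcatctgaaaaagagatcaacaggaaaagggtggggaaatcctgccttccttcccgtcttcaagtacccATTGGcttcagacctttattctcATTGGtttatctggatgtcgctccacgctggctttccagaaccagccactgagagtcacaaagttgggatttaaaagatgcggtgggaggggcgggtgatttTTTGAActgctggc
Cdk1 (chr10:69352883-69353162, - strand): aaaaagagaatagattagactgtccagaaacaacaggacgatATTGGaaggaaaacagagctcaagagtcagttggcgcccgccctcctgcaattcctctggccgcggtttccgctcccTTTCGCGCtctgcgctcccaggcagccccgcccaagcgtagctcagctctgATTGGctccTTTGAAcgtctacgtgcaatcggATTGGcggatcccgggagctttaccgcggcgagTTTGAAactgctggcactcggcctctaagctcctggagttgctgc
Mcm5 (chr8:75109259-75109538, + strand): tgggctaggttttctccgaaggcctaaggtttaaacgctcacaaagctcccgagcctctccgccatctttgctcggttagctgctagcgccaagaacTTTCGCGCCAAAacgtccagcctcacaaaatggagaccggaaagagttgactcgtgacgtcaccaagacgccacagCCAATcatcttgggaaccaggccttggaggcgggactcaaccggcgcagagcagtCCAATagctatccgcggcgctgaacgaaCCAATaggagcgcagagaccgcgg
Mcm6 (chr1:128359676-128359955, - strand): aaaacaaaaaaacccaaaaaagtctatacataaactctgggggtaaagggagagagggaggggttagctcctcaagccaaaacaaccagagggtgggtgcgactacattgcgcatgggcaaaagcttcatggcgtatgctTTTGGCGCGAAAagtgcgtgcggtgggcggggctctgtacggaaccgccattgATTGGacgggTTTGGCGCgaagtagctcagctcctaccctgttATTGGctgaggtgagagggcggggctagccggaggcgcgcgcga
Pcna (chr2:132253151-132253430, - strand): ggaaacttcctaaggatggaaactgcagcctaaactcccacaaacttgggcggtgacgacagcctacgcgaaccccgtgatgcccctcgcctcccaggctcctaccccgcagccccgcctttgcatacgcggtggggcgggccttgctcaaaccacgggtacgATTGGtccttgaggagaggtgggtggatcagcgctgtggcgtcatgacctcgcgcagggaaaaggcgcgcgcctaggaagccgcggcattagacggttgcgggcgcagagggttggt
The window of Cenpa held a CHR element 16 bases after the start and 2 CCAAT boxes upstream, and that of Cdk1 held CHR and CCAAT matches together with an E2F word. Mcm5 and Mcm6 each held a stretch in which TTTGGCGC and TTTCGCGC overlapped on opposite strands, and Pcna held 1 CCAAT box alone.

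Windows were found for 31 members, 32 windows in all, and 7 members had none (Ccna2, Aurkb, Tpx2, Kif20a, Foxm1, Mcm4 and Gmnn). Of the 32 windows, 24 held a CCAAT box (75.0%), against 36.1% of all 32851 windows of that length. At least 2 CCAAT boxes stood in 17 of the member windows (53.1%), against 11.1% of all windows. CHR stood in 12 (37.5% against 17.2%), and 11 of those 12 also held a CCAAT box (34.4% against 6.4% of all windows). The genes with both were Ccnb2, Cdc20, Cdc45, Cdca8, Cdk1, Cenpa, Kif11, Mcm2, Mki67, Top2a and Ube2c, most of them mitotic. An E2F word stood in 6 (18.8% against 1.73%), in Cdc6, Cdk1, Mcm3, Mcm5, Mcm6 and Mcm7, and 5 of these 6 license or unwind origins of replication. A match describes letters in a window and is neither a bound site nor a cause of the values that follow.

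In control mice the members marked the spleen. Of the 35 with a probe, 32 stood above the background cutoff (log2 6.87) on all 16 spleen arrays, whereas Ccnb2, Bub1 and Kif20a stayed at background in every tissue. Probes of 24 members were above the cutoff on at least 2 arrays of the kidney cortex, 25 in the kidney medulla, 26 in the liver and 31 in the lungs. Cenpa, the histone variant that marks centromeres, had control spleen signals of 12.86, 12.68 and 12.18. Its control levels were 9.20 ± 0.63 in the lungs, 8.81 ± 0.10 in the liver, 7.89 ± 0.21 in the kidney cortex and 7.49 ± 0.15 in the kidney medulla (mean ± SD, n = 3 each). Lungs and liver, neighbours in this order, did not differ beyond their SDs, and the spleen lay well apart from all 4.

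Measured against the control kidney cortex, 32 of 35 members were higher in the control spleen by the call used throughout (limma, Benjamini-Hochberg adjusted p under 0.01 and at least 1.5-fold), where 11.3% of all 25697 probes were called higher. The same number, 32, was higher than in the kidney medulla (11.6% of probes) and the liver (13.1%), and 30 were higher than in the lungs (7.77%). No member was called lower in any of these comparisons, and none was lower in its mean. The median difference over the 35 members was 2.22 against the cortex, 2.24 against the medulla, 1.95 against the liver and 2.00 against the lungs, while the median over all probes was between 0.0061 and 0.0203. Leaving out any control array, and the other settings tried, gave 30 to 32 members.

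Folds ran from 1.59 for Gmnn to 25.8 for Cenpa against the cortex, over the 20 members measured on both sides, and from 1.57 for Gmnn to 33.9 for Cenpa against the medulla, over 24. Against the liver they ran from 1.53 for Gmnn to 23.4 for Nusap1, a microtubule-bundling protein of the spindle, and against the lungs from 1.44 for Gmnn to 12.1 for Nusap1. Where all 3 control arrays of the other tissue were at or below the cutoff, only a bound could be given, from the spleen mean against the cutoff. Such bounds applied to 12 members in the cortex, 8 in the medulla, 6 in the liver and 1 in the lungs. Birc5, the survivin subunit of the chromosomal passenger complex, was at least 12.4-fold higher in the spleen than in the cortex. Cdk1, the kinase that drives entry into mitosis, was at least 6.24-fold higher than in the liver, and Cdca8, the borealin subunit of the passenger complex, at least 2.59-fold higher than in the lungs.

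Outside the spleen, Mcm4, a subunit of the replicative helicase, was the brightest member in the lungs (10.24 ± 0.37 in controls), the kidney medulla (8.96 ± 0.21) and the kidney cortex (8.73 ± 0.09). Tk1, the thymidine kinase of the salvage pathway, had the highest mean in the liver, with control values of 8.45, 8.60 and 9.38. Its difference between control spleen and liver was only 1.13, against 2.59 between spleen and lungs. Tyms, which makes thymidylate, was higher in the kidney cortex (8.39 ± 0.07) than in the lungs (7.45 ± 0.20), the reverse of the order shown by most members. Pcna and Gmnn were the members with a level in every tissue that missed the call against the lungs, with differences of 1.18 (adjusted p = 0.0117, limma) and 0.53 (adjusted p = 0.000122, below 1.5-fold).

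**Figure D1:**
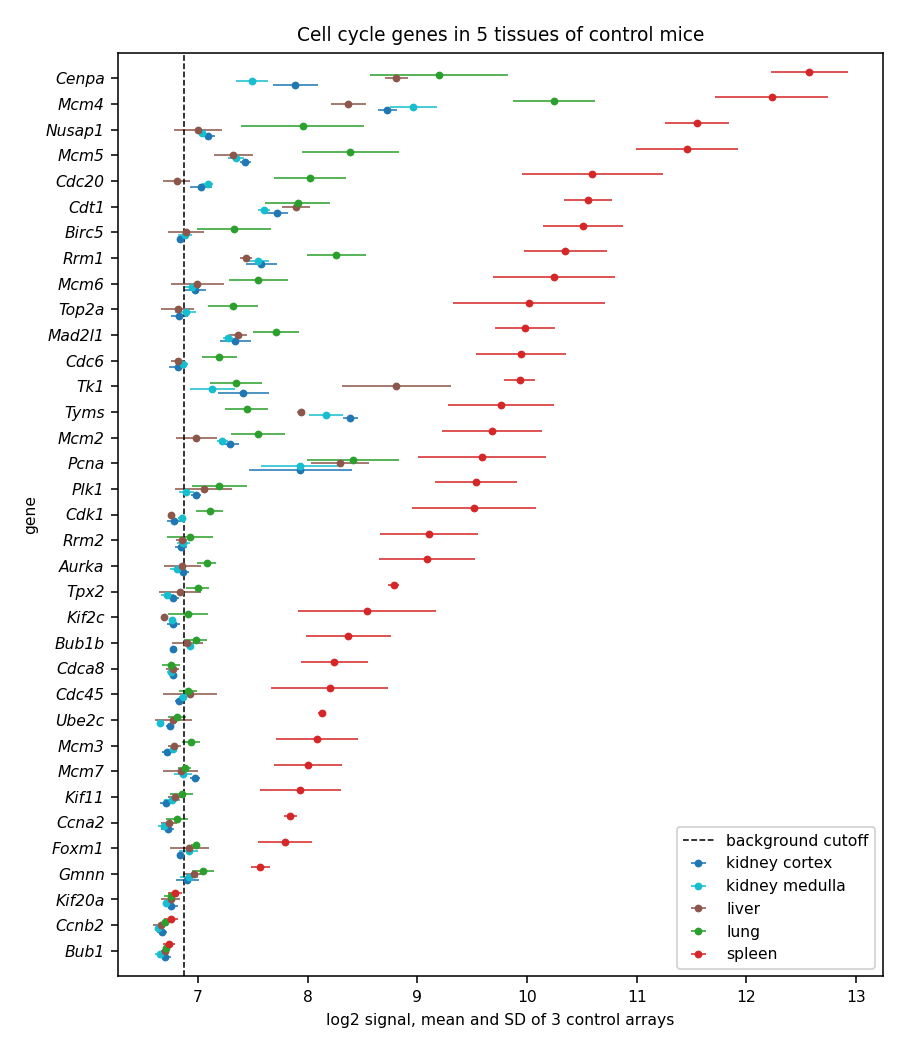
Mean log2 signal and SD (horizontal bars, n = 3 control arrays per tissue) of the 35 members with a probe, with 1 row per gene and 1 colour per tissue. The spleen means stand to the right of the other 4 tissues for every gene above the dashed background cutoff of 6.87, and Kif20a, Ccnb2 and Bub1 lie at background throughout.

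Variation of the members between mice was far larger in the spleen than in the other tissues. The median within-group SD of the 32 members in the spleen was 0.387, against 0.139 over all 16540 probes kept there and 0.217 over the probes with a mean log2 signal of 8 to 12. In the other tissues the median SD of the members was 0.116 to 0.156, close to that of all probes (0.113 to 0.143). Probes with a mean log2 signal of 8 to 12 had 0.145 (liver) to 0.215 (lungs) there. Many members lay near the background cutoff outside the spleen, where background left in the signals compresses the spread. One array needs naming before any spleen result. Replicate 1 of the 1.7 kBq 7 d spleens carried exocrine pancreas transcripts, with a summed signal of 13 pancreas markers of 112155 against 1574 to 2652 on the other 15 spleen arrays, and the 7 d medians and counts are given with and without it.

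The members moved together from array to array, across group borders. The median deviation of the 32 members from their own spleen medians was 0.41, 0.20 and -0.28 on control replicates 1, 2 and 3. It was -0.05, 0.03 and -0.67 at 1.7 kBq 1 h, 0.26, 0.33 and 0.09 at 1.7 kBq 6 h, and 0.04, -0.30 and -0.87 at 1.7 kBq 7 d. The 105 kBq 1 h arrays stood at 0.12 and -0.10, and the 7.5 kBq 6 h arrays at 0.40 and -0.12. Replicates of the same group thus lay on opposite sides of the spleen median in 5 of the 6 groups, and only the 1.7 kBq 6 h arrays all lay above it.

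Single genes followed the same order of arrays. On replicate 3 of 1.7 kBq 1 h and on replicates 2 and 3 of 1.7 kBq 7 d, none of the 32 members stood above its own median, whereas 31 did on replicates 1 and 2 of 1.7 kBq 6 h. The lowest value of 20 members fell on 7 d replicate 3, of 9 on 1 h replicate 3 and of 3 on 7 d replicate 2. For 13 members the sign of the deviation matched that of the median of the other members on 15 of the 16 arrays, and for a further 15 members on 13. The exceptions were Gmnn and Tk1 (11 arrays each) and Ccna2 and Pcna (9 each). The range over the 16 arrays had a median of 1.47 and ran from 0.69 for Gmnn to 2.54 for Rrm1, the large subunit of ribonucleotide reductase.

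**Figure D2:**
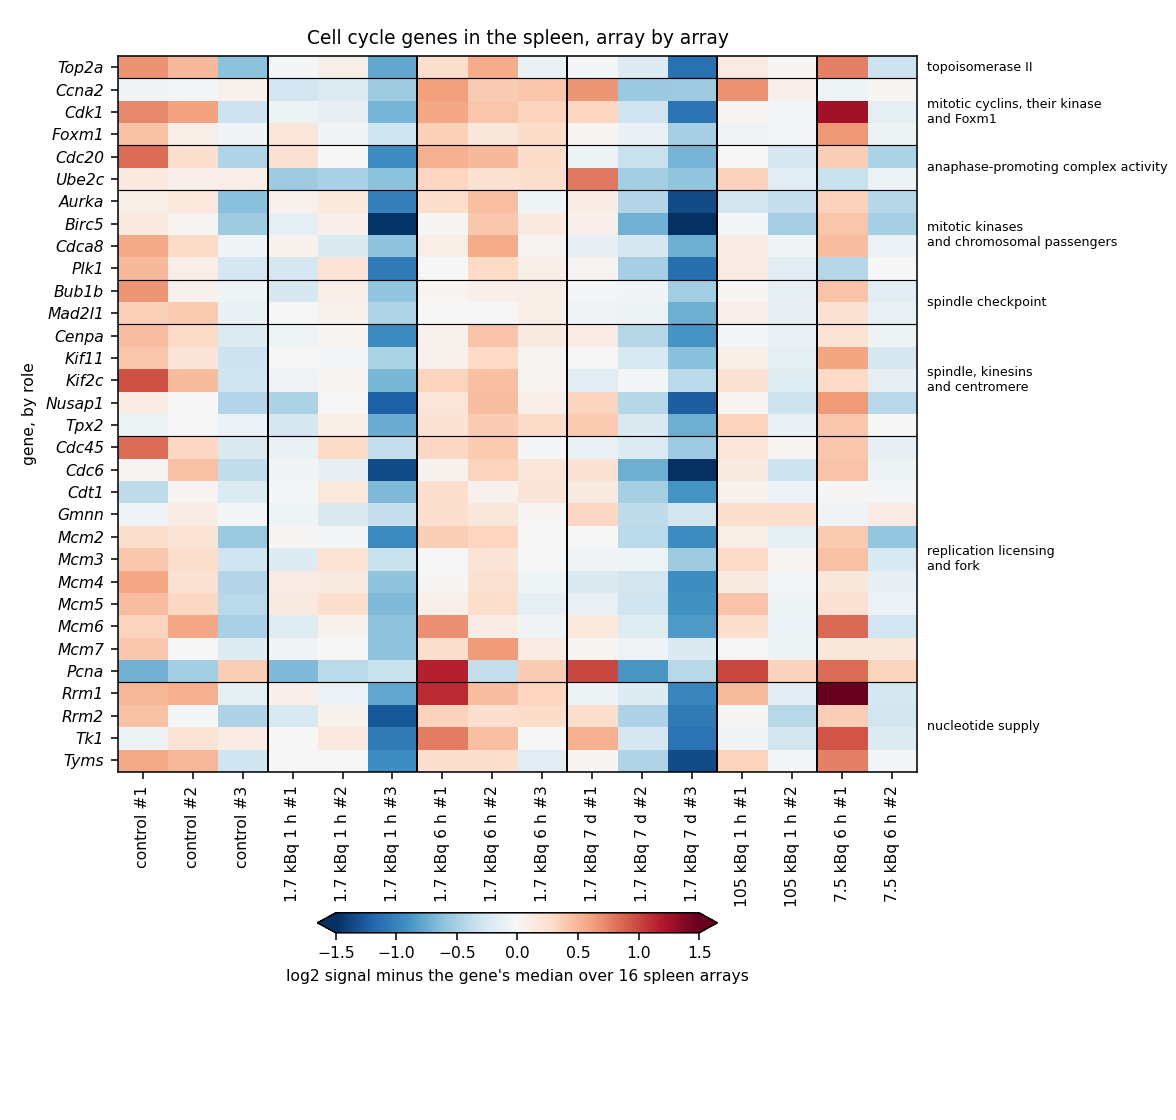
Log2 signal of 32 members minus the gene's median over 16 spleen arrays (colour scale), with genes as rows grouped by role and arrays as columns grouped by exposure. Columns of 1 colour cross the role groups, the bluest being 1.7 kBq 7 d replicate 3 and 1.7 kBq 1 h replicate 3, while the rows of Pcna and Ccna2 break the pattern.

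Top2a, the topoisomerase that untangles sister chromatids and a common proliferation marker, had control spleen values of 10.51, 10.32 and 9.23. Its values were 9.81, 9.94 and 9.06 at 1.7 kBq 1 h, 10.11, 10.40 and 9.74 at 6 h and 9.83, 9.65 and 8.73 at 7 d. At 105 kBq 1 h they were 9.97 and 9.86, and at 7.5 kBq 6 h 10.59 and 9.53. Every exposed group overlapped the control arrays, and the third replicate was the lowest in each group of 3. The difference from control at 7 d was -0.62 (SE 0.40), within the spread of these arrays.

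Cdk1, whose promoter is printed above, had control values of 9.90, 9.78 and 8.87 in the spleen. At 1.7 kBq 211At it gave 9.10, 9.04 and 8.47 after 1 h, 9.75, 9.59 and 9.51 after 6 h and 9.49, 8.87 and 8.07 after 7 d. The pair at 105 kBq gave 9.20 and 9.14, and the pair at 7.5 kBq 10.43 and 9.03. The highest and lowest of the 16 values thus came from exposed mice, and the third control overlapped the 1 h group. Ccna2, the cyclin of S phase and early mitosis, took another course, with tight controls of 7.80, 7.81 and 7.91. It was below all of them at 1.7 kBq 1 h (7.55, 7.65 and 7.31) and above all of them at 1.7 kBq 6 h (8.46, 8.23 and 8.26). At 7 d it split into 8.51 on the array with pancreas transcripts and 7.29 and 7.30 on the others, at 105 kBq it was 8.52 and 7.93, and at 7.5 kBq 7.79 and 7.88. Foxm1, the transcription factor of the mitotic wave, was dim, at 7.80 ± 0.25 in control spleen.

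Cdc20 and Ube2c serve the anaphase-promoting complex, the first as activator and the second as its ubiquitin-conjugating enzyme. Cdc20 gave 11.22, 10.63 and 9.93 in controls, 10.62, 10.39 and 9.45 at 1.7 kBq 1 h, 10.91, 10.87 and 10.66 at 6 h and 10.31, 10.05 and 9.69 at 7 d. It gave 10.38 and 10.15 at 105 kBq 1 h, and 10.75 and 9.91 at 7.5 kBq 6 h, so that all groups overlapped the controls. Ube2c had the tightest controls of the pair, 8.17, 8.10 and 8.11. All arrays of 1.7 kBq 1 h lay below them (7.48, 7.54 and 7.40) and all of 1.7 kBq 6 h above them (8.35, 8.26 and 8.28). At 7 d Ube2c was 8.81, 7.51 and 7.44, at 105 kBq 8.37 and 7.86, and at 7.5 kBq 7.69 and 7.95. Again the 7 d array with pancreas transcripts was the highest of its group.

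Among mitotic kinases and chromosomal passengers, Birc5 was the brightest. Its spleen values were 10.77, 10.67 and 10.09 in controls, 10.50, 10.70 and 9.15 at 1.7 kBq 1 h, 10.64, 11.03 and 10.78 at 6 h and 10.71, 9.90 and 8.97 at 7 d. At 105 kBq it gave 10.61 and 10.13, and at 7.5 kBq 11.04 and 10.13. The 2 lowest values, 8.97 and 9.15, were the third replicates of the 7 d and 1 h groups. Aurka, the kinase of centrosome maturation, had the same 2 arrays lowest, at 7.87 and 8.19, against controls of 9.31, 9.37 and 8.58. For Cdca8 all 3 arrays at 7 d (7.85, 7.72 and 7.24) lay below the controls (8.54, 8.26 and 7.94), by a narrow margin.

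Mad2l1, which holds the anaphase-promoting complex in check until chromosomes are attached, was the brightest spindle checkpoint gene. It gave 10.12, 10.16 and 9.66 in controls, 9.76, 9.83 and 9.31 at 1.7 kBq 1 h, 9.77, 9.77 and 9.85 at 6 h and 9.71, 9.68 and 9.04 at 7 d. The 105 kBq arrays gave 9.84 and 9.64, and the 7.5 kBq arrays 9.99 and 9.66. The third control kept every group overlapping. In the spindle and centromere group, Cenpa gave 12.33, 12.42 and 11.43 at 1.7 kBq 1 h, 12.46, 12.82 and 12.52 at 6 h, and 12.52, 11.97 and 11.50 at 7 d, beside the controls given above. It was 12.37 and 12.29 at 105 kBq and 12.59 and 12.32 at 7.5 kBq. The mean difference from control was -0.51 at 1 h (SE 0.28, adjusted p = 0.674, limma), and the groups overlapped.

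Of the genes of replication licensing and the fork, Mcm4 was the brightest. Its spleen values were 12.68, 12.34 and 11.67 in controls, 12.23, 12.24 and 11.50 at 1.7 kBq 1 h, 12.12, 12.33 and 12.04 at 6 h and 11.89, 11.82 and 11.17 at 7 d. At 105 kBq they were 12.24 and 12.09, and at 7.5 kBq 12.27 and 11.98. The control range of about 1 log2 unit covered all exposed arrays except 1 h replicate 3 and 7 d replicate 3. Cdt1, which loads the helicase with Cdc6, had controls of 10.36, 10.78 and 10.53 and lay above them on all 3 arrays of 1.7 kBq 6 h (10.99, 10.80 and 10.93). Cdc6 reached its lowest values, 8.57 and 8.32, on the third replicates of 1 h and 7 d, against controls of 9.95, 10.35 and 9.54.

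Pcna, like Ccna2, often departed from the other members. Its control values were 9.15, 9.37 and 10.25, the third control being the highest, whereas it was the lowest for most members. At 1.7 kBq it gave 9.22, 9.47 and 9.54 after 1 h, 11.04, 9.52 and 10.25 after 6 h and 10.87, 9.0 and 9.46 after 7 d. It gave 10.88 and 10.22 at 105 kBq and 10.72 and 10.21 at 7.5 kBq. Pcna had the highest within-group SD of the 32 members in the spleen (0.644), and of its 4 arrays at the larger activities 2 lay above the highest control and 2 just below it. The differences from control, 0.96 at 105 kBq (SE 0.53, adjusted p = 0.894) and 0.87 at 7.5 kBq (SE 0.53, adjusted p = 0.837), did not pass the test (limma).

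For nucleotide supply, Rrm1 gave 10.55, 10.58 and 9.92 in control spleens. It gave 10.12, 9.96 and 9.27 at 1.7 kBq 1 h, 11.16, 10.51 and 10.37 at 6 h and 9.97, 9.85 and 9.05 at 7 d. At 105 kBq it was 10.52 and 9.87, and at 7.5 kBq 11.59 and 9.79, which made replicate 1 of 7.5 kBq the highest of the 16 arrays. Tyms, at 9.76 ± 0.48 in controls (lowest 9.20), was 9.54, 9.05 and 8.17 at 7 d and 9.51, 9.50 and 8.58 at 1 h. It had the largest difference of any member at 7 d, -0.84 (SE 0.37, adjusted p = 0.839, limma), and the third control still overlapped the group. The mean of its probes gave -0.23, and leaving out 1 array gave -1.15 (without 7 d replicate 1) to -0.47 (without 7 d replicate 3).

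**Figure D3:**
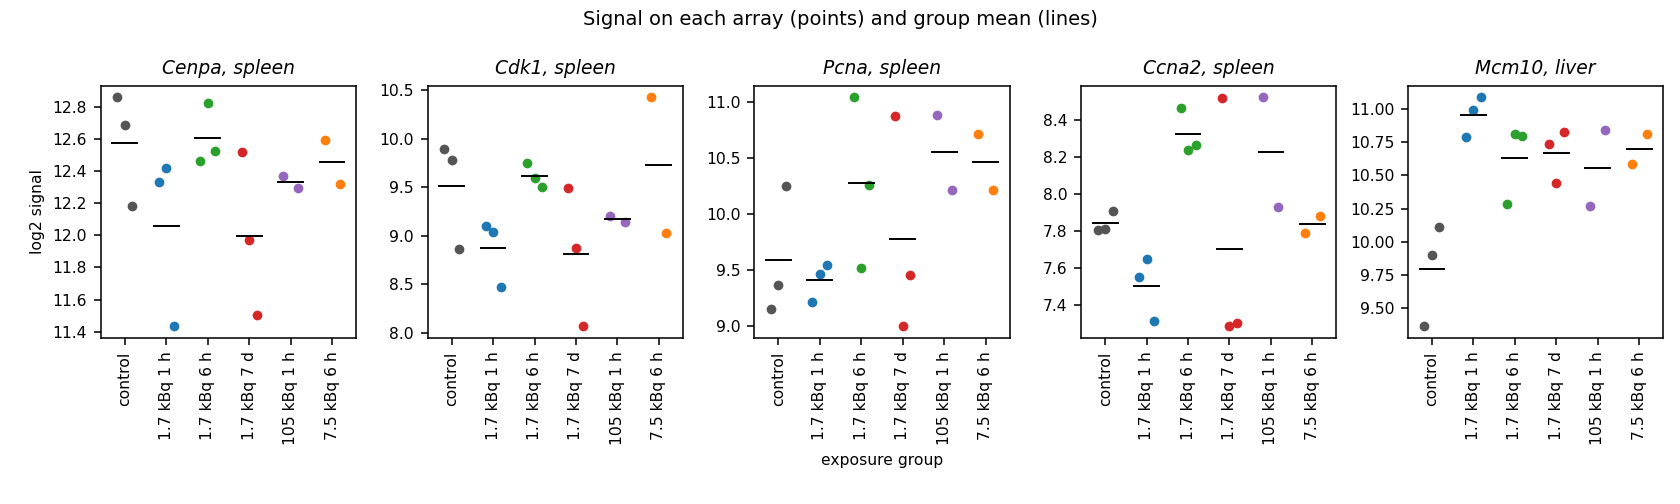
Log2 signal on each array (points) and group mean (lines) for Cenpa, Cdk1, Pcna and Ccna2 in the spleen and for Mcm10 in the liver, by exposure group. In the spleen the groups overlap the controls, other than Ccna2 at 1.7 kBq 1 h, 1.7 kBq 6 h and 105 kBq 1 h, while all 13 exposed liver arrays of Mcm10 lie above its 3 controls.

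No member was called in any comparison of exposed with control spleen. At 1.7 kBq 1 h, 31 of 32 members were lower than in controls, with a median difference of -0.38, and 3 had an unadjusted p under 0.05 (limma) against 3.17% of all probes in that direction. These were Ube2c (-0.65, SE 0.27, adjusted p = 0.563), Cdca8 (-0.53, SE 0.23) and Kif2c, a kinesin that corrects chromosome attachments (-0.61, SE 0.28). Only 0.00605% of the 16540 probes were called in this comparison. Ccna2, Ube2c and Gmnn lay entirely below the control arrays, 3 of 32 where 5.24% of all probes did so. Cdt1 had the highest value of the 32 (0.01) and Cdk1 was the second lowest (-0.64, SE 0.40, adjusted p = 0.722).

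At 1.7 kBq 6 h the members sat on the other side, with 23 of 32 higher and a median of 0.12, and 0 with an unadjusted p under 0.05 both ways (limma), against 3.02% of probes higher and 4.83% lower. Pcna (0.68, SE 0.47) and Ccna2 (0.48, SE 0.26) had the largest positive differences, and Mad2l1 (-0.18) and Tyms (-0.15) the largest negative ones. Ccna2, Ube2c, Cdt1 and Tpx2, an activator of Aurka on the spindle, lay entirely above the controls, against 5.85% of all probes. Of all 16540 probes, 0 were called.

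At 1.7 kBq 7 d, 31 of 32 members were again lower, with a median of -0.43. There were 5 at an unadjusted p under 0.05 (limma), Cdca8 (-0.64), Mad2l1 (-0.50), Mcm4 (-0.60), Tyms (-0.84) and Cdc45, a partner of the helicase at the fork (-0.60), against 3.17% of all probes in that direction, and 0 probes were called. Pcna was the only member with a positive difference (0.19), and Cdca8 the only one entirely below the controls (4.55% of all probes). Without the array with pancreas transcripts, all 32 were lower, the median was -0.71, and 15 had an unadjusted p under 0.05 against 2.77% of probes, still with no call. Tpx2 (-0.13) and Cdc6 (-0.74, SE 0.42) were the other genes at the ends of the order with all arrays.

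At 105 kBq 1 h, 24 of 32 members were lower with a median of -0.12, and at 7.5 kBq 6 h 18 were higher with a median of 0.05. In both comparisons 0 members had an unadjusted p under 0.05 (limma), against 2.96% of probes higher and 3.0% lower at 105 kBq and 3.04% higher and 3.03% lower at 7.5 kBq. All groups share 1 estimate of the spread, and without the 7 d array with pancreas transcripts 3 members were higher at that threshold at 105 kBq (3.23% of probes) and 1 lower at 7.5 kBq (3.17%), with the same medians and no member called. At 105 kBq Pcna (0.96) and Ccna2 (0.38) were highest, and Kif2c (-0.36) and Cdk1 (-0.34) lowest. At 7.5 kBq Pcna (0.87) and Rrm1 (0.34) were highest, and Plk1, a kinase of mitotic entry and exit (-0.32), and Ube2c (-0.31) lowest. Ccna2 and Gmnn lay entirely above the controls at 105 kBq (11.1% of all probes), and Ube2c entirely below them at 7.5 kBq (9.21%).

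The size of these shifts depended on single arrays, all from the 3 control or 3 exposed mice of each comparison. Without control replicate 3 the medians became -0.60 at 1 h and -0.68 at 7 d, with 9 and 15 members lower at an unadjusted p under 0.05, where the share of all probes rose to 5.6% and 7.13%. Without control replicate 1 they became -0.26 and -0.33 with 0 and 0 members (2.28% and 1.62% of probes). Without 1 h replicate 3 the 1 h median was -0.14, and without 7 d replicate 3 the 7 d median was -0.21, each with 0 members at that threshold (2.3% and 1.85% of probes). The SE of a member difference had a median of 0.286 with 3 arrays a side, so that differences of that size could not be resolved at this number of mice.

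**Figure D4:**
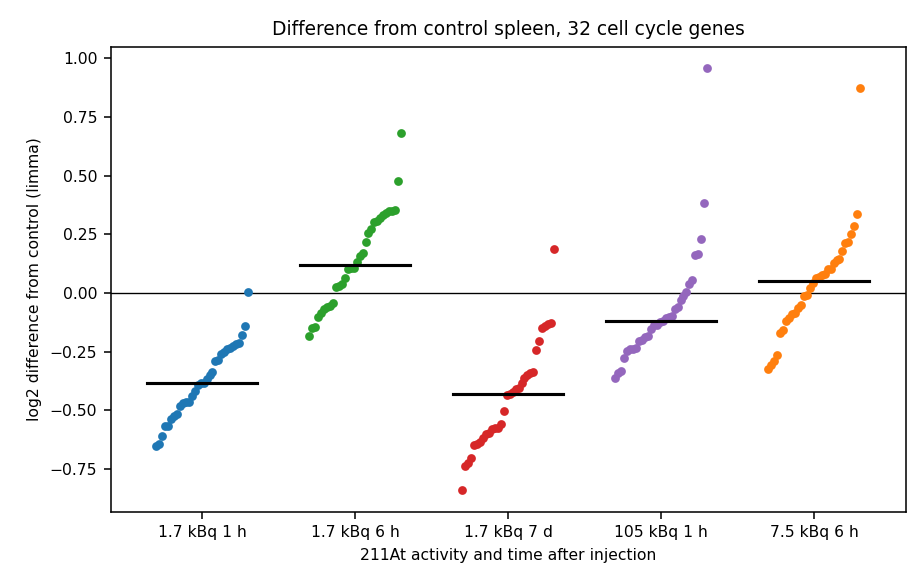
Log2 difference from control spleen for 32 members (points, sorted within each exposure) with their median (line), by 211At activity and time after injection. Medians lie at -0.38, 0.12, -0.43, -0.12 and 0.05 from left to right, and the topmost point in the last 4 groups is Pcna.

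Comparisons between exposed spleens, which leave the controls out, addressed activity at a fixed time and time at a fixed activity. At 1 h, 31 of 32 members were higher at 105 kBq than 1.7 kBq, with a median of 0.28, and Ccna2 (0.72, SE 0.29) and Gmnn (0.46, SE 0.16) had an unadjusted p under 0.05 against 2.16% of probes. Pcna had the largest difference (1.14) at a larger SE. Without 1.7 kBq 1 h replicate 3 the median was 0.0062 and no member was at that threshold (2.71% of probes), and without the 7 d array with pancreas transcripts 4 were (2.34%). At 6 h, 21 of 32 were lower at 7.5 kBq than 1.7 kBq, with a median of -0.06 and 0 at an unadjusted p under 0.05 (limma, where 2.99% of probes were higher and 1.93% lower). Without the 7 d array with pancreas transcripts 2 were lower at that threshold (1.95% of probes).

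Between the 7 d and 1 h spleens at 1.7 kBq the median difference was -0.12. Of the members 0 had an unadjusted p under 0.05 (limma), against 2.67% of probes higher and 4.58% lower, and 0.0121% of probes were called. Without the 7 d array with pancreas transcripts the median was -0.28 with 1 member lower at that threshold (3.17% of probes), without 1 h replicate 3 it was -0.32 with 2 lower (3.67%), and without 7 d replicate 3 it was 0.14. Against the 6 h spleens, all 32 members were lower at 7 d, with a median of -0.60. There were 7 at an unadjusted p under 0.05 (3.07% of probes), Ccna2 (-0.62), Cdc20 (-0.80), Cdca8 (-0.60), Foxm1 (-0.46), Mcm7 (-0.42), Rrm1 (-1.05, SE 0.43) and Cdt1 (-0.59), and their lowest adjusted p was 0.740 (limma). For 13 members every 7 d array lay below every 6 h array, where 5.92% of all probes did so. These were Cdk1, Cdc20, Foxm1, the passenger and checkpoint genes Cdca8, Bub1b and Mad2l1, the kinesins Kif11 and Kif2c, and Mcm3, Mcm4, Mcm7, Rrm1 and Cdc45. Without the 7 d array with pancreas transcripts the median was -0.87 and 23 members had an unadjusted p under 0.05 where 5.51% of all probes did in that direction, again with no call. Without 7 d replicate 3 the median was -0.35 with 0 members at that threshold (1.32% of probes).

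Genes of the same pathways outside the 38 were followed in 4 lists, and none was called in any of the 9 spleen comparisons. In these lists 100 genes were named and 86 had a probe. Of 29 other mitotic genes tested in the spleen, 28 were lower at 1.7 kBq 1 h (median -0.28), 25 higher at 6 h (0.14) and 26 lower at 7 d (-0.31), and Pbk, a mitotic kinase, was lowest at 7 d (-0.83) while Anln, the anillin of the cleavage furrow, was highest at 6 h (0.53). Of 23 other replication genes, 21 were lower at 1 h (-0.23), 15 higher at 6 h (0.06) and 21 lower at 7 d (-0.28). There Tipin, a fork protection factor, was lowest at 1 h (-0.84) and Lig1, the ligase of lagging-strand synthesis, highest at 6 h (0.47). Without the 7 d array with pancreas transcripts the 7 d medians were -0.45 for the mitotic list (28 of 29 lower) and -0.47 for the replication list (22 of 23 lower), and Pbk was at -1.19. Over the 16 arrays the median of the replication list lay on the same side as that of the 38 on 16 arrays, and that of the mitotic list on 15.

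Regulators of G1 and inhibitors of the cycle made up the other lists. Of 17 G1 cyclins, kinases, E2F and pocket protein genes, 12 were lower at 1 h (median -0.17), 11 higher at 6 h (0.15) and 13 lower at 7 d (-0.25). Cyclin D3 (Ccnd3) had the largest positive difference, 0.44 at 6 h, and cyclin D1 (Ccnd1) the largest negative one, -0.63 at 7.5 kBq. Of 12 inhibitors of cyclin-dependent kinases and G2 brakes, 8 were lower at 1 h (-0.13), 8 higher at 6 h (0.13) and 8 lower at 7 d (-0.03). Gadd45a, a stress-induced brake on G2, had both ends of that list, 0.32 at 6 h and -0.37 at 7 d. Without the array with pancreas transcripts the 7 d medians were -0.34 for the G1 list (13 of 17 lower) and -0.07 for the inhibitors (7 of 12 lower), and Gadd45a was at -0.73. Cdkn1a, the p21 inhibitor and a classical p53 target, differed from control by -0.31 at 6 h, -0.30 at 7.5 kBq and 0.04 at 7 d (0.12 without that array).

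Markers of the erythroid and neutrophil lines of the spleen varied with the members. Of 15 erythroid precursor markers listed, 11 had a probe and 10 were above the cutoff on every spleen array, among them Klf1, Gata1, Alas2 and Slc4a1. Epb42 was at background on all 16 arrays. The median deviation of the erythroid list lay on the same side as that of the members on 15 of 16 arrays, the exception being control replicate 1 (-0.57 against 0.41). Its summed signal ran from 19071 to 29177 in controls, 12441 to 30120 at 1.7 kBq 1 h, 30184 to 42824 at 6 h and 15375 to 36030 at 7 d. It was 21412 to 29073 at 105 kBq and 21216 to 38022 at 7.5 kBq. The lowest sums were those of 1 h replicate 3 and 7 d replicate 3, the 2 arrays on which the members were lowest.

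Against control, the erythroid markers were all lower at 1 h (10 of 10, median -0.10), all higher at 6 h (10 of 10, 0.58) and divided at 7 d (6 lower, -0.06), with no call. Without the array with pancreas transcripts 9 were lower at 7 d, with a median of -0.35. At 1.7 kBq 1 h Klf1 was 10.93, 11.52 and 8.77 against controls of 9.96, 10.99 and 10.78. Slc4a1 was 13.88, 14.06 and 12.98 against 13.55, 14.03 and 13.69. For these genes, and for Alas2, Hemgn and Rhag, replicate 3 was the only 1.7 kBq 1 h array below all controls. Replicates 1 and 2 lay within or above the control range. The lower means of these erythroid genes at 1 h thus rested on 1 array. Of 12 neutrophil precursor and granule markers, all above the cutoff on every array, the list median lay on the same side as the members on 14 of 16 arrays. Against control 12 of 12 were lower at 1 h, with a median of -2.16 and 11 at an unadjusted p under 0.05 (limma) where 3.17% of all probes were lower at that threshold, and none was called. Their medians were 0.34 at 6 h, -0.45 at 7 d (-1.02 without the array with pancreas transcripts), -0.22 at 105 kBq and -0.25 at 7.5 kBq, with 0 at that threshold. Their summed signal ran from 51806 to 124856 in controls and from 17615 to 60840 at 1.7 kBq 1 h. The B cell and germinal centre list (10 listed, 8 with a probe, 7 or 8 above the cutoff, Pax5 above it on 1 array) lay on the opposite side from the members on 13 of 16 arrays. The part of these cell populations in the shift of the members was not tested.

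**Figure D5:**
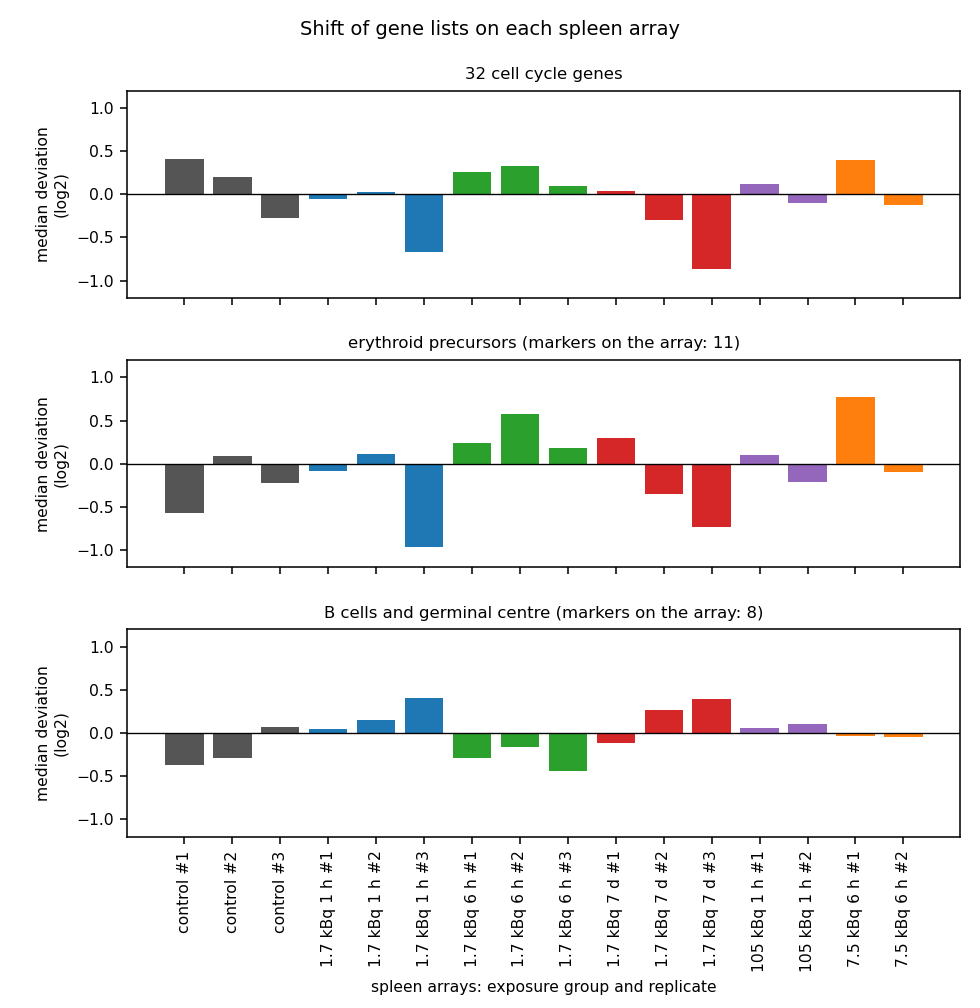
Median deviation (log2) of each list from its genes' own spleen medians on the 16 spleen arrays, for the 32 members, the erythroid precursor markers and the B cell and germinal centre markers, coloured by exposure group. Members and erythroid markers dip together on 1.7 kBq 1 h replicate 3 (-0.67 and -0.96) and 1.7 kBq 7 d replicate 3 (-0.87 and -0.74), where B cell markers stand above their medians.

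Outside the spleen no member was called either. Over all 5 tissues and 45 comparisons, 0 of 1242 tests of members passed the call (limma), and 34 higher and 36 lower had an unadjusted p under 0.05, 0.135% of the tests of all probes being called. The unadjusted share was 5.64% of member tests against 8.83% of the tests of all probes. The smallest adjusted p of any member was 0.0875, for Nusap1 in the liver at 7.5 kBq 6 h (0.40). Its values there were 7.44 and 7.36 against controls of 7.21, 7.02 and 6.77, close to background. Direct tests of whether the response in the spleen differed from that in another tissue, 20 in all, gave no member with an adjusted p under 0.05 (smallest 0.0865, limma), and 97 of 700 had an unadjusted p under 0.05, 13.9% against 7.11% of the tests of all 25697 probes, dim ones included. These tests share their control arrays. They also used 1 spread estimate per probe over all tissues. The members varied more in the spleen (median SD 0.387) than elsewhere (0.116 to 0.156), so their p-values can be too small. The share of 13.9% therefore cannot be read as a response of the spleen.

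In the kidney cortex Tk1 had the largest differences. Its control values were 7.42, 7.64 and 7.18, its values at 7.5 kBq 8.11 and 7.87, and those at 1.7 kBq 1 h 7.74, 7.96 and 8.03. Both groups lay above all controls, where 9.46% and 8.92% of probes did so. The differences were 0.58 (SE 0.16, adjusted p = 0.178, limma) at 7.5 kBq and 0.50 (SE 0.15, adjusted p = 0.184) at 1.7 kBq. With the mean of the gene's probes they were 0.28 and 0.22, and with background subtracted 1.25 and 1.11. The first of the 7.5 kBq values came from an array with hepatocyte transcripts (summed signal of 12 markers 84999.5 against 5453 to 9443 on the other 15 cortex arrays), and without it the difference at 7.5 kBq was 0.45 (adjusted p = 0.929). The 1.7 kBq 7 d and 105 kBq arrays also lay above the controls (6.98% and 12.3% of probes), and those of 1.7 kBq 6 h (7.33, 7.91 and 7.58) overlapped them. In the kidney medulla Pcna was 8.47 and 8.63 at 105 kBq against controls of 8.11, 7.52 and 8.15 (0.62, SE 0.32). Tk1 in the medulla was 8.93, 7.12 and 7.04 at 7 d, the first value from an array with a liver-like profile. Its difference of 0.56 became -0.05 without that array.

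In the liver, Cenpa was 8.16, 8.39 and 8.34 at 1.7 kBq 1 h and 8.36 and 8.33 at 105 kBq 1 h, below all controls (8.77, 8.93 and 8.73), as 10% and 15.3% of probes were. The difference of -0.51 at 1.7 kBq (SE 0.21, adjusted p = 0.199), like that of -0.47 at 105 kBq (SE 0.23, adjusted p = 0.319), did not pass the test (limma). At 7 d, with values of 9.05, 9.03 and 8.72, Cenpa overlapped the controls. In the lungs 25 to 30 of 31 members were lower than control in each of the 5 exposures, with medians of -0.08 to -0.19. Over all kept lung probes, 47.1% to 49.4% were higher and the medians were -0.0088 to -0.0016. Members entirely below the controls numbered 0 at 1.7 kBq 1 h, 7 at 6 h and 2 at 7 d (1200, 1192 and 650 of 15982 probes). There were 9 at 105 kBq and 9 at 7.5 kBq (2315 and 2157 probes). Only Pcna at 105 kBq lay entirely above them (2078 probes). Lung control replicate 1 had all 31 members above their own medians, as had 1.7 kBq 1 h replicate 1. Cenpa at 7.5 kBq (8.56 and 8.66) against controls of 9.88, 9.08 and 8.63 differed by -0.59 (SE 0.39), and Cdc20 at 105 kBq (7.57 and 7.36) against 8.23, 8.19 and 7.65 by -0.56 (SE 0.28).

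One gene of the pathway lists passed the call in the 45 comparisons. Mcm10, which helps switch the loaded helicase to active forks, had liver values of 9.36, 9.90 and 10.11 in controls and 10.79, 11.00 and 11.09 at 1.7 kBq 1 h. It was higher by 1.17 (SE 0.20, adjusted p = 0.00286, limma). Of the 18063 probes in that comparison, 222 passed the call (1.23%). The values were 10.28, 10.81 and 10.79 at 6 h, 10.74, 10.44 and 10.83 at 7 d, 10.27 and 10.84 at 105 kBq and 10.59 and 10.81 at 7.5 kBq. All 13 exposed arrays, from 10.27 to 11.09, thus stood above the 3 controls, as 1.74% of liver probes did and none of the members.

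Mcm10 in the other liver exposures differed from control by 0.84 at 6 h (adjusted p = 0.0381), 0.88 at 7 d (0.136), 0.76 at 105 kBq (0.0629) and 0.91 at 7.5 kBq (0.0291, limma), none past the call. A second Mcm10 probe, dimmer, ran from 7.97 to 8.90 on exposed arrays against 7.60, 8.03 and 7.90 in controls, and overlapped them. Its values of 8.52, 8.90 and 8.63 at 1.7 kBq 1 h lay above all 3 controls, as those of 2108 of 18063 liver probes did. Unlike the members, Mcm10 was about as high in the control liver as in the control spleen (difference 0.09), and 2.64 to 2.85 lower in the other tissues. The adjusted p of the call ran from 0.000429 to 0.0177 over the settings tried, and controls were killed at another time of the experiment than every exposed group, so that exposure and time of killing cannot be told apart.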

How the data were processed

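Total RNA (RNA integrity number at least 6, per the study's methods) was hybridized to Illumina MouseRef-8 BeadChips. The authors deposited quantile-normalized signal intensities, 1 column per mouse and tissue, with background left in. All 80 arrays shared 1 distribution of 25697 probes, between 88.7 and 27812. Technical triplicates named in the methods were already combined, and 160 further columns of per-sample values were not used. Probes were kept where at least 2 of 16 arrays of a tissue exceeded 117, the mode of 106 plus 2.33 SDs of the values under it. With log2 intensities, limma 3.58.1 (R 4.3.3) fitted 6 group means per tissue with Benjamini-Hochberg adjustment over the kept probes. Control tissues were compared over 15 control arrays and all 25697 probes, and differences between tissues in 1 fit of 30 group means. The fit was tested on simulated data in which probes varied independently. The shared movement of the members in the spleen was not part of that test. The number of arrays limits the precision, and p-values measure the spread between mice as labelled.

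Members and lists were chosen with earlier results of these data known. Named with their values were the member with the highest mean in each of 8 role groups, the 2 largest differences from control in each direction in each spleen comparison, called genes, and in other tissues the brightest member and the 2 largest differences. Other members and marker genes were picked after their values were seen. Alternatives were another filter, background subtraction, renormalization within tissue, equal array medians, array weights, a replicate block, mean of a gene's probes, fits of the compared groups alone, a looser threshold and leaving out each array. Among comparisons with 3 pairs, same-numbered replicates deviated together (r above 0.1 in every pair) only between control spleen and lungs, r = 0.169 to 0.253, where the replicate block gave 31 members in place of 30. With 2 pairs, both r were also above 0.1 for 7.5 kBq against control in the kidney cortex and the lungs. Some comparisons with 3 pairs came close to that limit. In the spleen r was 0.096 to 0.217 for 1.7 kBq 1 h against control and 0.094 to 0.238 for 6 h. In the kidney medulla it was 0.087 to 0.368 for 1.7 kBq 6 h. Spleen counts with the replicate block are given below. Promoter sequences are RefSeq's on GRCm38.p6, matched by gene symbol.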

Additional observations from a re-analysis of the deposited data

How the results depend on the processing

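Counts of called members stayed at 0 within tissues, and at 30 to 32 between control spleen and other control tissues, under all alternatives run. The median difference in the spleen ranged over these alternatives from -0.49 to -0.29 at 1.7 kBq 1 h, 0.02 to 0.20 at 6 h, -0.61 to -0.36 at 7 d, -0.36 to -0.09 at 105 kBq and -0.17 to 0.06 at 7.5 kBq. Leaving out 1 array gave -0.60 to -0.14, -0.08 to 0.23, -0.71 to -0.21, -0.34 to 0.04 and -0.30 to 0.35. With the replicate block the medians were -0.38, 0.12, -0.43, -0.36 and -0.17, and no call changed within tissues. At an unadjusted p under 0.05 (limma), 11, 0, 18, 4 and 2 of 32 members were then lower. The shares of all probes lower at that threshold were 4.2%, 4.99%, 3.9%, 3.5% and 3.72%. At 6 h 1 member was higher at that threshold (3.56% of probes). With array weights Cdt1 in the spleen at 1.7 kBq 1 h changed sign (-0.10 against 0.01). Leaving out 1 array, the sign also changed for Cdt1 (-0.16 to 0.25) and Aurka at 1 h (-0.39 to 0.24), Tyms at 6 h (-0.43 to 0.0067), Pcna (-0.36 to 0.58) and Tpx2 (-0.42 to 0.14) at 7 d, Rrm1 at 7.5 kBq (-0.56 to 1.24) and Tk1 in the kidney medulla at 7 d (-0.0518 to 0.89). The cause was not tested. The liver call of Mcm10 was lost with background subtracted (adjusted p = 0.0177), in a fit of the compared groups alone (0.0130), and without control replicate 2 (0.0105), 1 h replicate 2 (0.0124) or 1 h replicate 3 (0.0150), where its difference stayed between 0.95 and 1.33. Genes near the cutoff have their differences compressed by the background left in the signals, and groups of 2 or 3 mice leave changes below the spread between mice unresolved in the spleen.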

Other observations

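Megakaryocyte and platelet markers, which belong to the spleen's blood formation but not to the cell cycle, took another order of groups. All 6 with a probe (7 listed) were above the cutoff on every spleen array and higher than control at 1.7 kBq 6 h, with a median difference of 1.09 and 6 at an unadjusted p under 0.05 (limma) where 3.02% of all probes were, and none was called. The largest difference was that of Ppbp, a platelet chemokine (1.33), and the smallest that of Gp9, a subunit of the von Willebrand factor receptor (0.88). The controls spread widely, with a summed signal of 3922 to 14046 against 14295 to 21511 at 6 h. Pf4 was 10.91 on control replicate 1 and 12.27 and 12.86 on the other controls, against 13.30, 12.49 and 13.18 at 6 h. At 7 d all 6 were higher with a median of 0.66 (0.41 without the array with pancreas transcripts), where the members had a median of -0.43, and their list median lay on the same side as the members on 11 of 16 arrays.

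In both kidney tissues, replicate 2 of 1.7 kBq 7 d had the most of the 35 members above the background cutoff. There were 24 in the cortex and 25 in the medulla, against 13 to 21 and 15 to 20 on the other arrays. The median deviation of the kept members on replicate 2 was 0.24 in the cortex and 0.14 in the medulla.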
